A study of Mus musculus with 30 samples.

Results

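Gene expression in the hippocampus 24 h after lipopolysaccharide (LPS) was set against expression 6 h after LPS, in 8 of the series' 30 RNA-seq libraries, with all genes compared. The libraries were chosen by the tissue, treatment and time in their labels, and each came from a different mouse. Mice A274, A275, A276 and A278 formed the 24 h group, and mice A240, A241, A242 and A243 formed the 6 h group. All were male wild-type animals of the inbred strain C57BL/6J, 8 to 12 weeks old when obtained and kept in single housing. Both groups carried the same history, which models exposures linked to Gulf War Illness. Corticosterone (CORT), the principal rodent glucocorticoid, was drunk at 200 mg/L with 0.6% ethanol for 7 days. Diisopropyl fluorophosphate (DFP), an inhibitor of acetylcholinesterase, was injected at 4 mg/kg on day 8, and CORT was then given in alternate weeks until 5 weeks were complete. LPS, a constituent of the outer membrane of Gram-negative bacteria, was injected under the skin at 0.5 mg/kg on the last day. Hippocampi of mice with this history that were taken 12 h after LPS (4 libraries) or 6 h after saline (3 libraries) entered the same fit and are cited for context, as is the frontal cortex of the 8 mice. No mice without CORT and DFP were analysed here. The clock time of collection is not given in the labels, so hours since LPS and time of day cannot be told apart.

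LPS is sensed by Toll-like receptor 4 together with CD14, and the signal passes through NF-kB to cytokine genes and to genes that restrain NF-kB itself. Interferons and their receptors then drive antiviral genes through STAT and IRF proteins, and blood vessel cells put selectins and adhesion molecules on their surface. Microglia, the resident macrophages of the brain, carry a set of genes for surveillance, such as the purinergic receptor gene P2ry12, which is known to fall during acute inflammation. Glucocorticoids act through a nuclear receptor that switches on its own target genes in astrocytes, vessels and neurons.

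The deposited table held between 20458591 and 24079020 counts per library at 24 h and between 18910055 and 26366879 at 6 h. Replicates of a group correlated with r between 0.9905 and 0.9949 on log2 counts and differed by more than sampling noise, so all 8 were kept as separate samples. The hippocampal identity of the tissue was checked with Prox1 (80.8 to 101 CPM, counts scaled to a common library size), Zbtb20 (138 to 236 CPM) and Neurod6 (186 to 214 CPM), which were detected in each of the 8 libraries. Library A276 of the 24 h group stood apart. In it 30 of 13575 genes lay more than 2-fold from the mean of the other 3 libraries, against 1 to 3 genes for each other 24 h library and 1 to 6 for each 6 h library. Rbm3 and Cirbp, cold-inducible RNA-binding protein genes named after their values were seen, were at 176 and 90.0 CPM in A276, against 53.8 to 63.8 and 32.6 to 35.7 CPM in the other 24 h libraries and 28.4 to 36.3 and 26.1 to 34.9 CPM at 6 h. In the cortex of mouse A276 Rbm3 was at 61.8 CPM, within the 46.3 to 89.1 CPM of the other 24 h cortex libraries, and Cirbp was at 46.1 CPM, above their 35.7 to 41.1 CPM. Library A240 of the 6 h group held more Ttr, the choroid plexus transcript for transthyretin (341 CPM, against 25.4 to 39.2 CPM in the other 6 h libraries and 19.6 to 49.7 CPM at 24 h). Many results that rest on A276 or A240 are given below also without them. Printed genes whose call was lost without both are listed in the last section.

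Between 24 h and 6 h, 1640 of 17289 genes tested differed at an adjusted p under 0.05 in edgeR's quasi-likelihood test with Benjamini-Hochberg adjustment, which is 9.49% of the genes. Of these 790 were higher at 24 h (4.57%) and 850 were lower (4.92%), while 4232 genes had an unadjusted p under 0.05. Counts of called list members below are to be read beside these shares of 4.57% higher and 4.92% lower. At least 2-fold differences were 127 upward and 67 downward. Scaling by library totals alone moved the split to 1010 higher and 656 lower, a share of 60.6% higher in place of 48.2%, and shifted the median of all genes by 0.022 on the log2 scale. The median size of a called difference was 0.42 on the log2 scale for genes that were higher and 0.295 for genes that were lower. Of the called genes 89.5% of the higher and 93.8% of the lower ones were protein coding, against 84.8% of all genes tested. The lowest 24 h library was above the highest 6 h library for 1466 genes (8.48%), and the highest 24 h library was below the lowest 6 h library for 1658 (9.59%). The 2 groups come from different mice, and nothing in the labels ties a 24 h mouse to a 6 h mouse.

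**Figure D1:**
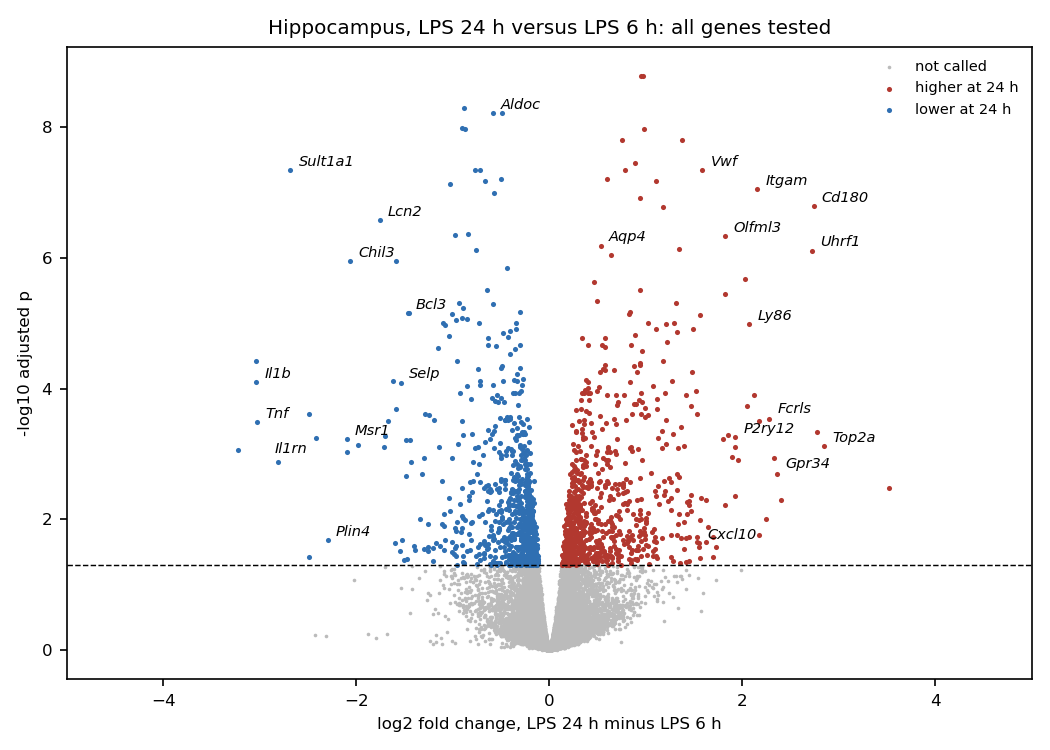
Each point is 1 of the 17289 genes tested, with the log2 fold change of LPS 24 h minus LPS 6 h on the horizontal axis and -log10 of the adjusted p on the vertical axis. Red points were higher at 24 h (790) and blue points lower (850), and the dashed line marks an adjusted p of 0.05. Microglial (Gpr34, P2ry12, Fcrls), myeloid (Itgam, Cd180, Ly86) and cell division (Top2a, Uhrf1) genes lie at the right edge, and cytokine (Il1b, Tnf) and glucocorticoid-responsive (Sult1a1) genes at the left edge.

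Most genes that mark surveilling microglia were higher at 24 h. Of 26 such genes 17 were called higher and 1 lower, with a median log2 fold change of 0.73, against 4.57% and 4.92% of all genes and a median of 0.00 over all genes. The count of 17 was the same when any of the 8 libraries was left out. Gpr34, a receptor for lysophosphatidylserine, was at 10, 9.11, 6.93 and 7.78 CPM at 24 h and at 1.82, 1.0, 2.45 and 1.34 CPM at 6 h (log2 fold change 2.36 ± 0.38 SE, adjusted p = 0.00203). P2ry12 (GRCm38 chromosome 3, 59216272 to 59262871), the ADP receptor of microglial processes, was at 28.3, 29.5, 25.4 and 29.4 CPM at 24 h and at 7.98, 4.38, 8.77 and 8.72 CPM at 6 h (1.93 ± 0.25, adjusted p = 0.000555). The lowest 24 h library was thus far above the highest 6 h library for both genes. Fcrls, an Fc receptor-like gene of mouse microglia, was at 34.3, 25.6, 25.2 and 31.6 CPM against 7.11, 4.13, 6.78 and 6.10 CPM (2.27 ± 0.27, adjusted p = 0.000296). The membrane protein gene Tmem119, a microglial marker, differed by 1.52 ± 0.17 (adjusted p = 0.000107), and Olfml3, which encodes a secreted glycoprotein, by 1.82 ± 0.13 (adjusted p = 4.63e-07). Slc2a5, the fructose transporter GLUT5, differed by 1.82 ± 0.21 (adjusted p = 3.55e-06). None of these genes had overlapping groups.

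The other members that rose included Siglech (1.47 ± 0.19) and Selplg (1.49 ± 0.15), a selectin ligand, then the lipid-sensing receptor Trem2 (0.83 ± 0.18), the growth factor receptor Csf1r (0.76 ± 0.06) and the fractalkine receptor Cx3cr1 (0.69 ± 0.10). The member that fell, Gpr84, is a fatty acid receptor that myeloid cells are known to induce under LPS. It was at 1.5, 2.23, 3.18 and 2.23 CPM at 24 h and at 5.07, 11.7, 7.14 and 6.36 CPM at 6 h (-1.72 ± 0.27, adjusted p = 0.000778). Its 24 h libraries were all below its 6 h libraries. Beside the saline libraries, which share no animals with the LPS groups but serve both contrasts below, P2ry12 differed by 1.30 at 24 h (adjusted p = 0.00523) and by -0.63 at 6 h (adjusted p = 0.333). Fcrls differed from saline by 2.96 at 24 h (adjusted p = 4.65e-05) and by 0.69 at 6 h (adjusted p = 0.427). Tmem119 differed from saline by 1.04 at 24 h (adjusted p = 0.00131) and by -0.48 at 6 h (adjusted p = 0.247). The 24 h level therefore lay above saline for these 3 genes, and the 6 h level did not pass the test in either direction. The same held for Olfml3, Siglech, Trem2, Csf1r and Cx3cr1, but not for every member. Gpr34 did not pass against saline at either time (adjusted p = 0.0672 at 24 h and 0.144 at 6 h). Selplg was below saline at 6 h (-1.08, adjusted p = 0.000424) and did not pass at 24 h (0.41, adjusted p = 0.0817). Gpr84 was above saline at both times (adjusted p = 0.0254 at 24 h and 2.73e-05 at 6 h). In bulk tissue, more cells of a type and more RNA per cell cannot be told apart.

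**Figure D2:**
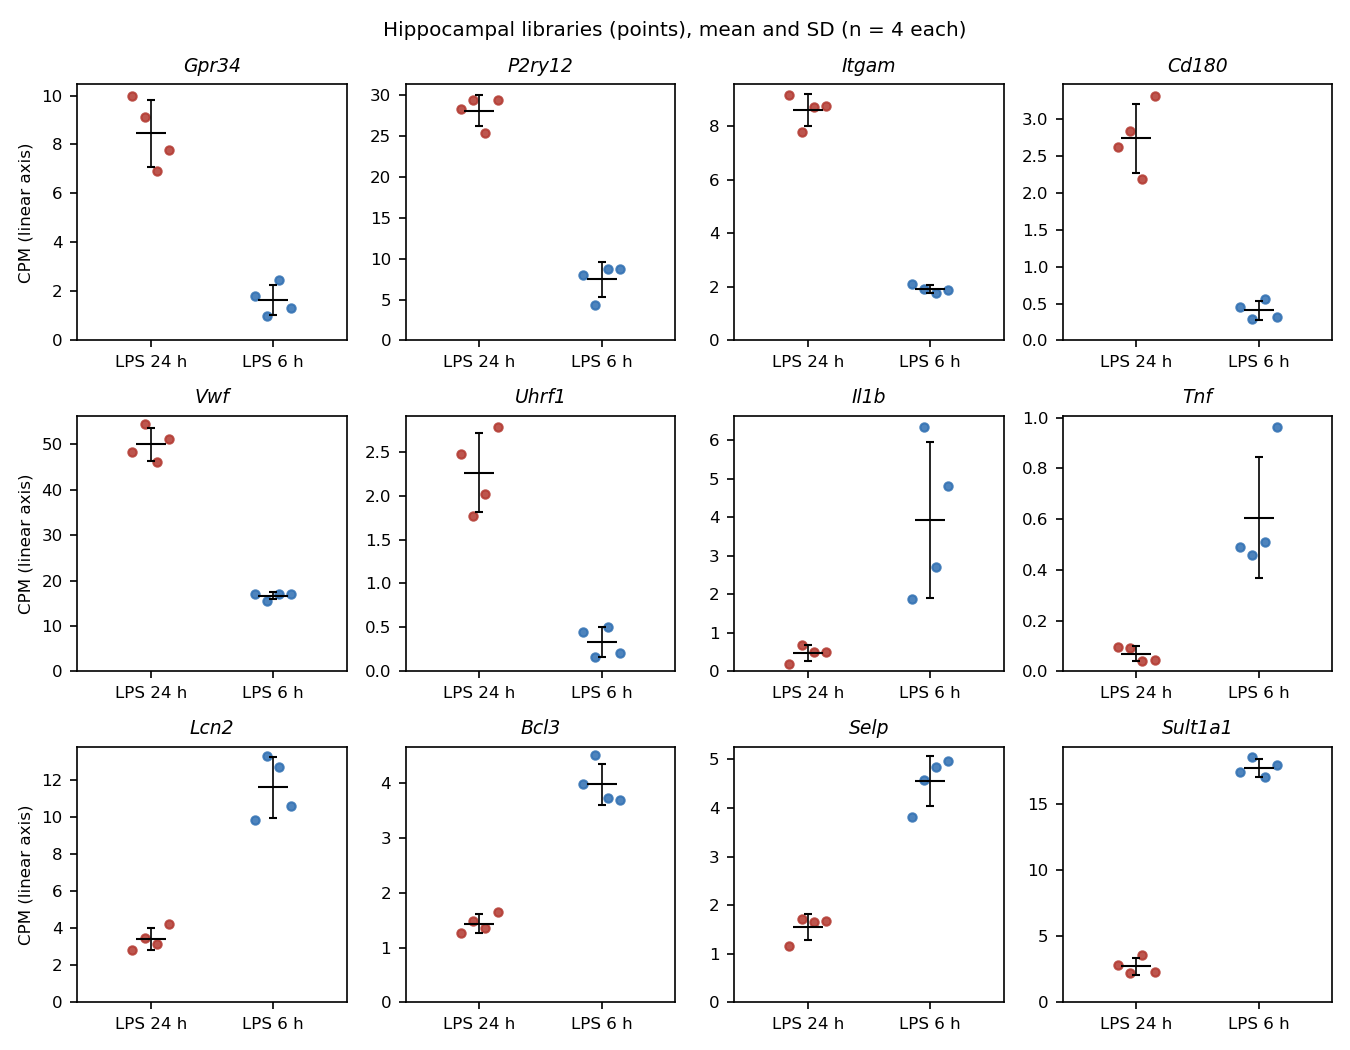
CPM on linear axes from 0 in each hippocampal library for 12 genes, with LPS 24 h in red and LPS 6 h in blue, 4 libraries each; black lines are the mean and SD. In each panel every 24 h library lies on the same side of every 6 h library, above it for Gpr34, P2ry12, Itgam, Cd180, Vwf and Uhrf1 and below it for Il1b, Tnf, Lcn2, Bcl3, Selp and Sult1a1.

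Complement and Toll-like receptor genes moved in both directions, with more members higher, and the Fc receptor genes that were called were all higher. Of 17 complement genes tested (19 listed) 6 were higher and 1 lower, of 13 Fc gamma receptor and adaptor genes 7 were higher and none lower at this threshold, and of 18 LPS sensing genes 4 were higher and 2 lower. Median log2 fold changes were 0.20, 0.46 and 0.12. Itgam (chromosome 7, 128062640 to 128118491), the CD11b chain of complement receptor 3, was at 9.16, 7.76, 8.70 and 8.74 CPM at 24 h and at 2.12, 1.92, 1.78 and 1.87 CPM at 6 h (2.15 ± 0.19, adjusted p = 8.85e-08). Cd180, a receptor related to Toll-like receptor 4 that pairs with the product of Ly86, was at 2.62, 2.84, 2.19 and 3.32 CPM against 0.454, 0.292, 0.561 and 0.321 CPM (2.74 ± 0.26, adjusted p = 1.64e-07). Ly86 itself was at 17.1, 13, 10.3 and 18.7 CPM against 3.71, 2.63, 4.08 and 3.69 CPM (2.07 ± 0.21, adjusted p = 1.04e-05). All 3 were separated without overlap, and each was also above saline at 24 h (2.66, 3.02 and 1.85, adjusted p = 8.87e-09, 6.02e-08 and 2.04e-05). The classical complement subunit gene C1qc differed by 0.78 ± 0.07 (adjusted p = 4.63e-08) and C4b, the component that C1 cleaves, by 0.95 ± 0.12 (adjusted p = 0.000246).

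The activating immunoglobulin receptor gene Fcgr1 was at 6.98, 6.69, 8.00 and 8.56 CPM at 24 h and at 3.18, 4.25, 4.79 and 3.96 CPM at 6 h (0.91 ± 0.13, adjusted p = 5.63e-05). The inhibitory receptor gene Fcgr2b (0.84 ± 0.15, adjusted p = 0.000814), the shared signalling chain gene Fcer1g (0.67 ± 0.09, adjusted p = 5.14e-05) and the inositol phosphatase gene Inpp5d (0.89 ± 0.11, adjusted p = 1.51e-05) were higher as well. Endosomal receptors for nucleic acids were among the Toll-like receptor genes that rose: Tlr13, which binds bacterial ribosomal RNA, by 1.32 ± 0.17 (adjusted p = 1.38e-05) and Tlr9, which binds unmethylated CpG DNA, by 1.14 ± 0.26 (adjusted p = 0.00588). Tlr2 and Cd14 went the other way. Tlr2, the receptor for bacterial lipoproteins, was at 1.16, 2.05, 2.19 and 1.77 CPM at 24 h and at 3.56, 7.54, 4.08 and 4.38 CPM at 6 h (-1.44 ± 0.24, adjusted p = 0.000607). Its groups did not overlap, and against saline it differed by 0.80 at 24 h (adjusted p = 0.0946) and by 2.24 at 6 h (adjusted p = 2.63e-05). C5ar1, the receptor for the complement fragment C5a, was lower at 24 h by 1.61 ± 0.23 on the log2 scale (log2 fold change -1.61, adjusted p = 7.62e-05), and Cd14, the LPS co-receptor, differed by -0.80 ± 0.16 (adjusted p = 0.00258).

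Among 25 tested genes of activated and phagocytic microglia (27 listed) 8 were higher and 2 lower, with a median of 0.20. Aif1, which encodes the macrophage protein IBA1, was at 6.49, 4.32, 5.40 and 6.10 CPM at 24 h and at 2.12, 1.71, 3.11 and 1.76 CPM at 6 h (1.36 ± 0.22, adjusted p = 0.000385). Cd84, a receptor of the SLAM family, differed by 1.21 ± 0.20 (adjusted p = 0.000303), and Ms4a6d by 1.19 ± 0.24 (adjusted p = 0.00255). Msr1, the class A scavenger receptor, moved the opposite way, at 0.678, 0.837, 1.20 and 0.865 CPM against 2.54, 6.54, 2.55 and 3.85 CPM (-2.10 ± 0.33, adjusted p = 0.000589). Msr1 was still above saline at 24 h (2.62, adjusted p = 0.00616), where saline averaged 0.140 CPM. The second member called lower was Apoe, and the count of 2 was 1 without A240, A242, A274, A275 or A278. Slc15a3, a lysosomal transporter of peptides and histidine, was at 1.55, 1.81, 2.81 and 1.82 CPM at 24 h and at 5.60, 7.29, 6.07 and 5.24 CPM at 6 h (-1.59 ± 0.17, adjusted p = 1.13e-06). Fgd2, a guanine nucleotide exchange factor gene of phagocytes, was higher by 1.53 ± 0.23 (adjusted p = 0.000246).

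Some genes of DNA replication and cell division were higher at 24 h. Of 40 listed genes 31 passed the filter on low counts, and of those 12 were called higher and none lower at this threshold, with a median of 0.43. The count was between 10 and 11 when 1 of the 8 libraries was left out. Uhrf1, which binds hemimethylated DNA at replication forks, was at 2.47, 1.77, 2.02 and 2.78 CPM at 24 h and at 0.454, 0.167, 0.510 and 0.214 CPM at 6 h (2.72 ± 0.28, adjusted p = 7.76e-07). Top2a (chromosome 11, 98992943 to 99024189), the DNA topoisomerase of mitotic cells, was at 3.63, 1.44, 0.660 and 1.91 CPM against 0.227, 0.458, 0.204 and 0.107 CPM (2.85 ± 0.48, adjusted p = 0.000764). Mki67, the proliferation antigen Ki-67, was at 3.44, 2.0, 1.07 and 2.37 CPM against 0.681, 0.625, 0.357 and 0.749 CPM (1.85 ± 0.31, adjusted p = 0.000511). The groups of all 3 genes were apart, and A276 was the lowest 24 h library for Top2a and Mki67. Tk1, the cytosolic thymidine kinase, differed by 1.79 ± 0.32 (adjusted p = 0.000589). These transcripts were scarce: the 4 libraries together held 164 counts of Top2a at 24 h and 23 at 6 h, and 192 and 54 of Mki67. The 9 members below the filter varied. Cdk1 had 42 counts at 24 h and 5 at 6 h, and Aurkb had 40 and 5. Ttk had 27 and 24, and Ccnb2 had 22 and 14.

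At the promoter of Top2a, of Mki67 and of 3 further genes described below, letters of 1 binding motif are shown in capitals, because each gene was called and its list has a known regulatory motif. Sequences are RefSeq's 250 bases before to 50 after the start (GRCm38.p6), read 5′ to 3′ along the gene's own strand. Capitals mark, on either strand, the cell cycle homology region TTTGAA (Top2a, Mki67), the interferon-stimulated response element core (Ifit3b), which is TTTC, any pair of bases and TTTC, the NF-kB site (Nfkb2), which is GGG, any pair of bases and TTTCC, and the E-box CACGTG (Ciart). No marked matches overlap, and Nfkb2 is shown at 1 of its 3 listed starts. The windows are chr11:99024140-99024439 (minus strand) for Top2a, chr7:135716330-135716629 (minus) for Mki67, chr19:34607707-34608006 (plus) for Ifit3b, chr19:46304487-46304786 (plus) for Nfkb2 and chr3:95882179-95882478 (minus) for Ciart.
Top2a: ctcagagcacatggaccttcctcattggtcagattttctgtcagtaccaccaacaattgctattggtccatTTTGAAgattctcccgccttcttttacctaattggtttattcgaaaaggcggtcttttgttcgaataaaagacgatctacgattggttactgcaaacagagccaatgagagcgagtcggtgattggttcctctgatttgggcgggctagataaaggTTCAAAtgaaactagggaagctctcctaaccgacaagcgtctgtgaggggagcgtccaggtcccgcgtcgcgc
Mki67: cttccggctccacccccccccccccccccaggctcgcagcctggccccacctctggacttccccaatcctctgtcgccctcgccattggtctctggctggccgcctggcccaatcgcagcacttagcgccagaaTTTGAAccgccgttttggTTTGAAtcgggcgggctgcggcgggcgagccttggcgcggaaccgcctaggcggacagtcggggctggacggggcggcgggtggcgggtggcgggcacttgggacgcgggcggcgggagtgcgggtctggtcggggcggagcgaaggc
Ifit3b: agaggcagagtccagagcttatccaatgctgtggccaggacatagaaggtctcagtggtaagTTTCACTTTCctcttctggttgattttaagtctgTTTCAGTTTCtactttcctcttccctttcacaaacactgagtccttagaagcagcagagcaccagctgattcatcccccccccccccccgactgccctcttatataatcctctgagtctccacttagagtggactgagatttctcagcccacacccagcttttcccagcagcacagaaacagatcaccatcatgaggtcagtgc
Nfkb2: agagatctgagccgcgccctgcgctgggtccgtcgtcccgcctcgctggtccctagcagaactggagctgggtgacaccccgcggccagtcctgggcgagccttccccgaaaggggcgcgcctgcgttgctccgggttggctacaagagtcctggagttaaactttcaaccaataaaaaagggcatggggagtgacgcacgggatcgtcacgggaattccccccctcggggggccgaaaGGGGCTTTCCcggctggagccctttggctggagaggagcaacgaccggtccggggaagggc
Ciart: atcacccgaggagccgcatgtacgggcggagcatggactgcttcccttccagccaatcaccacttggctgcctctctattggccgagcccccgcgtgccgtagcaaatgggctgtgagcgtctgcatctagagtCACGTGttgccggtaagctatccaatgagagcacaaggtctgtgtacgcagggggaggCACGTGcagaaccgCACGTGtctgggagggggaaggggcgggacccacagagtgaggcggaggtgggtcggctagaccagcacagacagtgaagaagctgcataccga

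The motif TTTGAA was found in the promoters of 12 of 27 DNA replication and cell division genes with an entry in the table (44.4%), against 14.2% of the 12065 tested genes that had one. The interferon element core was found for 13 of 24 interferon-stimulated genes (54.2%) and 9 of 10 interferon-inducible GTPases (90.0%), against 3.70% of all. It was found for 5.60% of genes called higher at 24 h and 3.30% of those called lower. The NF-kB site was found for 4 of 17 NF-kB genes (23.5%), against 1.96% of all, and for 0.876% of genes called higher and 2.67% of those called lower. CACGTG was found for 5 of 18 clock genes (27.8%) and 5 of 22 glucocorticoid-responsive genes (22.7%), against 11.2% of all. Its share was 10.9% of genes called higher and 12.7% of those called lower. A match is a string of letters in a window and not a measured binding site.

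The cytokine genes Il1b, Tnf and Il1rn were lower at 24 h, while most of their list did not pass the test. Of 25 listed cytokine and chemokine genes 15 were tested, and of those 2 were higher and 4 lower, with a median of -0.24. Il1b (chromosome 2, 129364570 to 129371139), which encodes interleukin-1 beta, was at 0.194, 0.697, 0.495 and 0.501 CPM at 24 h and at 1.89, 6.33, 2.70 and 4.81 CPM at 6 h (-3.03 ± 0.39, adjusted p = 7.83e-05). Tnf was at 0.0969, 0.0930, 0.0413 and 0.0455 CPM against 0.492, 0.458, 0.510 and 0.962 CPM (-3.02 ± 0.50, adjusted p = 0.000328), from 6 and 52 counts in all. Il1rn, the interleukin-1 receptor antagonist, was at 0, 0.0930, 0.124 and 0.0910 CPM against 0.378, 0.917, 0.612 and 0.428 CPM (-2.81 ± 0.52, adjusted p = 0.0013). The 24 h libraries were below the 6 h libraries for each of these genes. At 24 h Il1b remained above saline (2.65, adjusted p = 0.0337), where it averaged 0.0716 CPM, and Tnf differed from saline by 0.84 (adjusted p = 0.615).

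Chemokine genes did not move as 1 group. Ccl2, which attracts monocytes, was at 0.630, 0.232, 1.90 and 0.455 CPM at 24 h and at 1.14, 3.08, 1.07 and 2.51 CPM at 6 h. Its difference of -1.23 ± 0.50 missed the threshold (adjusted p = 0.144), and without A276, the highest 24 h library, it was -2.14 (adjusted p = 0.00375). Cxcl10, an interferon-induced chemokine, was at 2.42, 1.81, 3.01 and 6.23 CPM against 1.29, 1.46, 0.816 and 0.962 CPM (1.55 ± 0.39, adjusted p = 0.0232), and it missed the threshold without A240, A242 or A243. The second chemokine called higher was Ccl12 (0.93 ± 0.23, adjusted p = 0.0103), a mouse monocyte attractant. Without both A276 and A240, neither Cxcl10 nor Ccl12 was called, and no member of the list was higher. Cx3cl1, the neuronal ligand of the fractalkine receptor, was lower (-0.24 ± 0.05, adjusted p = 0.0024). The other 10 members lay below the filter in these libraries; Csf3 had 9 counts at 24 h and 35 at 6 h, Cxcl2 had 1 and 17, and Ccl5 had 13 and 0.

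Of 21 tested genes of NF-kB signalling and its feedback 1 was higher and 7 lower, with a median of -0.26. Bcl3, a nuclear partner of NF-kB p50 and p52, was at 1.26, 1.49, 1.36 and 1.64 CPM at 24 h and at 3.97, 4.50, 3.72 and 3.69 CPM at 6 h (-1.47 ± 0.18, adjusted p = 7.07e-06). Nfkb2, whose promoter is printed above, was at 3.54, 3.49, 2.97 and 4.28 CPM against 4.65, 6.21, 5.40 and 5.51 CPM (-0.61 ± 0.13, adjusted p = 0.00336). Both were lower in every 24 h library than in any 6 h library. Ier3, an immediate early survival gene, differed by -0.58 ± 0.10 (adjusted p = 0.000447), and Birc3, an inhibitor of apoptosis that ubiquitinates RIP kinases, by -0.81 ± 0.20 (adjusted p = 0.0115) with overlapping groups. Bcl3 and Ier3 were still above saline at 24 h, by 2.88 and 1.15 (adjusted p = 2.85e-07 and 3.11e-07). The inhibitor gene Nfkbia differed by -0.26 ± 0.10 (adjusted p = 0.121; called without A240) and Tnfaip3, a deubiquitinase that ends NF-kB signalling, by 0.03 ± 0.11 (adjusted p = 0.896). The member called higher was Tnfrsf1b, the second tumour necrosis factor receptor gene, which was not called without A240, A274 or A276.

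In the interleukin-1 and interleukin-6 receptor and STAT3 list 2 of 16 tested genes were higher and 3 lower, with a median of -0.12. Il10ra, the interleukin-10 receptor chain, was at 5.43, 4.37, 5.16 and 5.78 CPM at 24 h and at 2.42, 2.71, 2.6 and 3.10 CPM at 6 h (0.94 ± 0.13, adjusted p = 4.11e-05). Osmr, the oncostatin M receptor chain, was at 6.83, 8.28, 11.9 and 7.01 CPM against 12.2, 15.1, 13.5 and 13.1 CPM (-0.66 ± 0.13, adjusted p = 0.00311). Neither gene had overlapping groups, although A276 was the nearest 24 h library to the 6 h group for Osmr. Cebpd, an acute phase transcription factor, differed by -0.56 ± 0.11 (adjusted p = 0.00291). Socs3, the feedback inhibitor of STAT3, was at 3.63, 5.39, 9.57 and 5.14 CPM against 8.59, 15, 11.6 and 12.1 CPM (-0.98 ± 0.25, adjusted p = 0.0277). Without A276 its difference was -1.31 (adjusted p = 0.000597), and without A241, A242, A243, A274, A275 or A278 it missed the threshold. The list's 3 lower members were 5 without A276, and its 2 higher members were 1 without A240, A241, A242, A274 or A275.

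Many antiviral genes induced by interferon were higher at 24 h. Of 34 listed, all were tested, 17 were higher and none lower at this threshold, with a median of 0.58. The count of 17 was 11 without A278, when 1 member was lower, and 10 without both A276 and A240. Ifit3b, an interferon-induced tetratricopeptide gene whose promoter is printed above, was at 15.1, 17.5, 18.8 and 26.8 CPM at 24 h and at 6.70, 8.71, 7.03 and 7.38 CPM at 6 h (1.39 ± 0.20, adjusted p = 0.000744). Ifi204, a DNA sensor gene of the PYHIN family, was at 1.89, 1.53, 2.76 and 3.14 CPM against 0.378, 0.583, 0.561 and 0.642 CPM (2.12 ± 0.32, adjusted p = 0.000126). Ifi27l2a was at 1.36, 0.790, 1.28 and 1.5 CPM against 0.416, 0.208, 0.153 and 0.267 CPM (2.17 ± 0.36, adjusted p = 0.000316). A278 was the highest 24 h library for all 3 genes, and each was separated without overlap. Mx1, a GTPase that blocks viral replication, differed by 1.53 ± 0.41 (adjusted p = 0.0186), and by 1.46 without A242 (adjusted p = 0.0536). Reads of Ifit3b and its near-identical copy Ifit3 (1.34 ± 0.22) may have been divided in counting.

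The interferon-inducible GTPases showed no common direction. Of 16 tested (17 listed) 3 were higher and 1 lower, with a median of -0.20, and each of these counts changed when single libraries were left out. Gbp6 was at 2.86, 3.11, 3.67 and 6.01 CPM at 24 h and at 1.74, 1.46, 2.96 and 1.76 CPM at 6 h (1.0 ± 0.24, adjusted p = 0.0106), with overlap. The number higher was 1 without A240, A242, A243, A274 or A278, and 0 without both A276 and A240. Gbp3 (0.70 ± 0.20, adjusted p = 0.0336), Gbp7 (0.45 ± 0.14, adjusted p = 0.0411) and Gbp9 (-0.62 ± 0.18, adjusted p = 0.0367) are members of the same multigene family, whose shared reads make their values uncertain. The number lower was 2 without A240, 3 without A278 and 0 without any of the other 6. Of 17 interferon receptor, STAT and IRF genes 3 were higher, with a median of -0.01, and none was lower except 1 without A274. Irf9, the DNA-binding subunit of the factor that type I interferon activates, was at 11.6, 13, 11.8 and 14.2 CPM against 7.26, 9.58, 8.67 and 7.70 CPM (0.60 ± 0.11, adjusted p = 0.000786). Irf5, a factor of Toll-like receptor signalling, differed by 0.45 ± 0.14 (adjusted p = 0.043) and missed the threshold without A240, A241, A242, A243, A275, A276 or A278. The number higher was 1 without A240, A241, A242, A243 or A278.

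Of 20 tested genes of MHC class I presentation 2 were higher and 1 lower, with a median of 0.12. B2m, the shared light chain, was at 66.4, 66.3, 62.5 and 74.0 CPM at 24 h and at 56.7, 59.3, 61.4 and 57.4 CPM at 6 h (0.20 ± 0.05, adjusted p = 0.0156). It missed the threshold without A240 or A278, so that no member was called higher without either of these libraries, and 1 was without A241, A243 or A276. The member that fell was Calr, an endoplasmic reticulum chaperone (-0.52 ± 0.11, adjusted p = 0.00733).

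**Figure D3:**
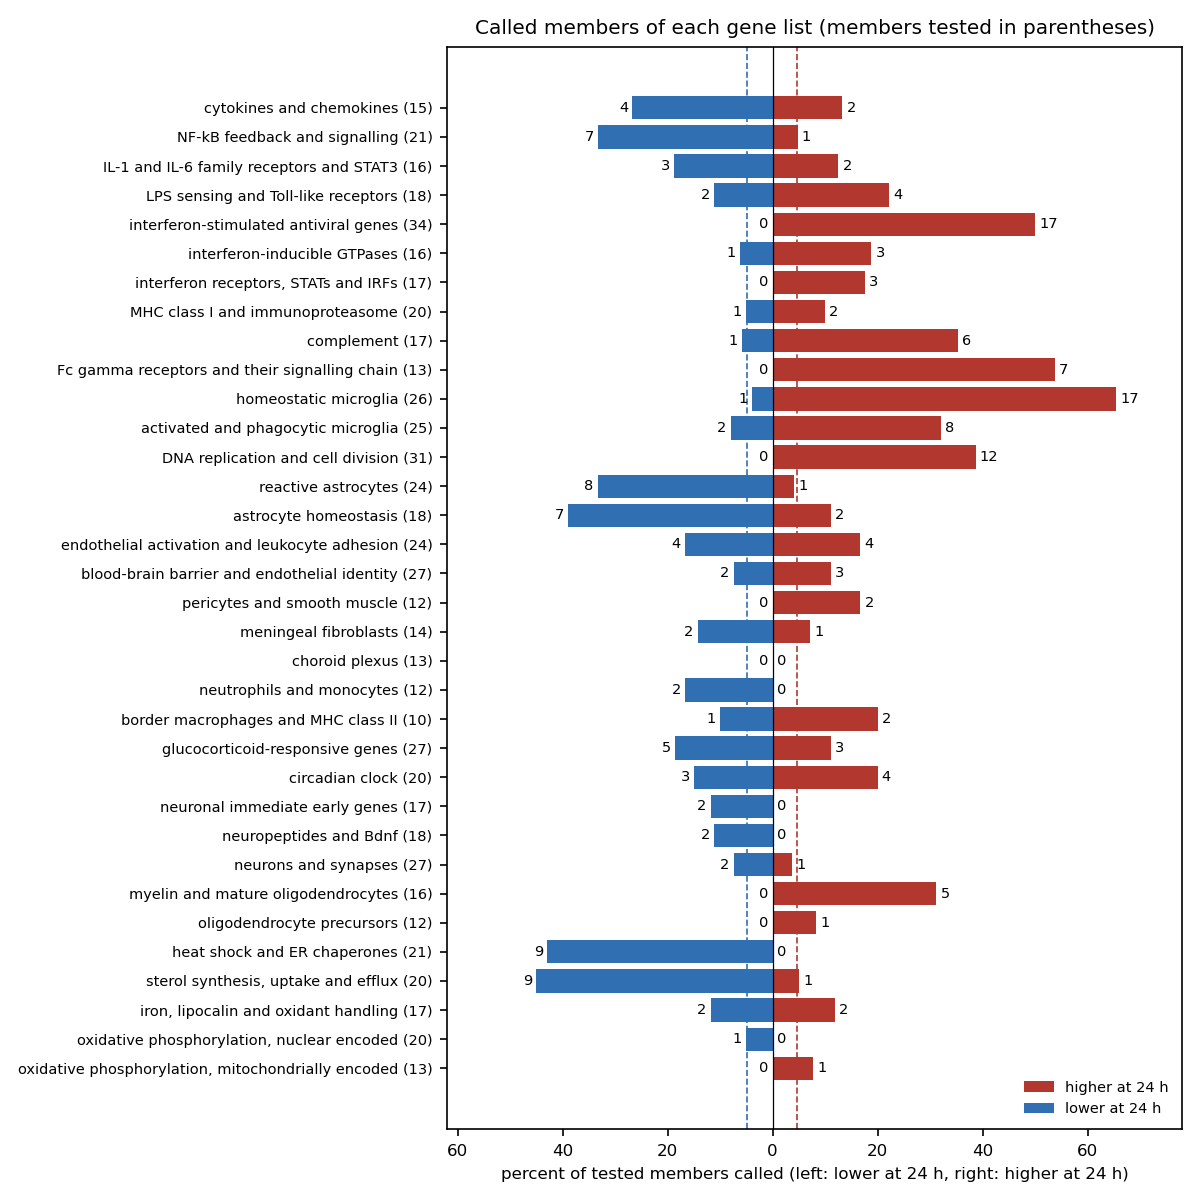
Share of tested members called in each list with at least 10 tested members: higher at 24 h to the right in red, lower at 24 h to the left in blue, with the number of genes at each bar's end and the number tested in parentheses. Dashed lines mark the shares over all genes, 4.57% higher and 4.92% lower. The longest bars to the right belong to homeostatic microglia (17 genes), Fc gamma receptors (7) and interferon-stimulated antiviral genes (17), and the longest to the left to sterol genes (9), heat shock and ER chaperones (9) and astrocyte homeostasis (7).

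Endothelial genes changed in both directions. Of 24 tested genes of endothelial activation and leukocyte adhesion (25 listed) 4 were higher and 4 lower, with a median of 0.05. The selectin genes, whose products slow rolling leukocytes, were lower. Selp was at 1.16, 1.72, 1.65 and 1.68 CPM at 24 h and at 3.82, 4.58, 4.84 and 4.97 CPM at 6 h (-1.54 ± 0.22, adjusted p = 8.07e-05). Sele was at 1.26, 3.02, 1.86 and 1.59 CPM against 3.44, 5.04, 5.91 and 6.79 CPM (-1.44 ± 0.26, adjusted p = 0.00131). Both remained above saline at 24 h, where each averaged 0.0231 or 0.0229 CPM (adjusted p = 1.52e-07 for Selp and 3.19e-06 for Sele). Vwf (chromosome 6, 125546774 to 125686679), the platelet-binding von Willebrand factor, was higher, at 48.4, 54.4, 46.0 and 51.1 CPM against 17.1, 15.5, 17 and 17.1 CPM (1.58 ± 0.11, adjusted p = 4.63e-08). Saline libraries averaged 17.3 CPM of Vwf, against which 6 h differed by -0.06 (adjusted p = 0.911). Icam1, the ligand of leukocyte integrins, differed by -0.81 ± 0.21 (adjusted p = 0.0204) and missed the threshold without A241, A242 or A275.

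Ctla2a, an inhibitor of cysteine proteases, was at 10.3, 9.16, 42.1 and 11.2 CPM at 24 h and at 3.78, 4.42, 4.23 and 3.80 CPM at 6 h (2.18 ± 0.49, adjusted p = 0.0173). The value of 42.1 CPM was that of A276, without which the difference was 1.34 (adjusted p = 3.5e-07), and without A240 the adjusted p was 0.0515. Without A276 the list had 7 lower members in place of 4. Of 27 genes of the blood-brain barrier and endothelial identity 3 were higher (11.1%, against 4.57% of all genes) and 2 lower (7.41%, against 4.92%). Their median was 0.14, and 7 were higher without A276. Cldn5, the main tight junction claudin of brain vessels, was at 41.2, 30.1, 36.6 and 40.2 CPM at 24 h and at 26.4, 23.1, 27.0 and 25.1 CPM at 6 h (0.55 ± 0.10, adjusted p = 0.0017). The fit of all 30 libraries did not call it (adjusted p = 0.0618). The endothelial receptor gene Tie1 differed by 0.60 ± 0.12 (adjusted p = 0.00262). Slc2a1, the glucose transporter GLUT1, was at 72.1, 68.1, 109 and 68.3 CPM against 53.2, 52.8, 57.9 and 47.4 CPM (0.59 ± 0.16, adjusted p = 0.0346). Its difference was 0.40 without A276 (adjusted p = 0.0176), and it missed the threshold without any 1 of the 4 libraries at 6 h. Mfsd2a, the lipid transporter that restrains transcytosis, was lower, at 10.6, 11.8, 11.2 and 8.60 CPM against 17.7, 22.8, 20.6 and 17.8 CPM (-0.90 ± 0.13, adjusted p = 0.000316), with saline at 37.3 CPM on average.

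Markers of cells from outside the tissue were counted by list. Of 21 listed neutrophil and monocyte genes 12 were tested, none was higher and 2 were lower, and the summed level of the 12 was 12.4 to 19.3 CPM at 24 h and 20.1 to 21.6 CPM at 6 h. Chil3, a chitinase-like protein of myeloid cells, was at 0.630, 0.418, 0.701 and 0.637 CPM against 2.61, 2.58, 3.06 and 1.82 CPM (-2.07 ± 0.22, adjusted p = 1.12e-06). The calprotectin genes S100a8 and S100a9 were highest at 24 h in A276, at 2.85 and 4.21 CPM, against 1.0 to 1.26 and 1.21 to 2.05 CPM in the other 24 h libraries and 2.69 to 3.85 and 3.94 to 4.63 CPM at 6 h. S100a8 differed by -1.0 ± 0.29 (adjusted p = 0.0315) and by -1.51 without A276 (adjusted p = 0.000196), and it missed the threshold without A241, A242, A243, A274, A275 or A278. The list had 4 lower members without A276 and 1 without A241, A242, A243, A274, A275 or A278. S100a9 differed by -0.84 ± 0.28 (adjusted p = 0.0736) and by -1.32 without A276 (adjusted p = 0.00029). Of 14 lymphocyte genes 1, the T cell receptor constant region gene Trac, passed the filter, at 0.436 to 0.990 CPM at 24 h and 0.625 to 0.908 CPM at 6 h. The summed level of 13 choroid plexus genes was 150.0 to 201 CPM at 24 h and 135 to 631 CPM at 6 h, where A240 was the highest, and no member was called, although 9 were called lower with no filter on low counts. Of 7 listed red blood cell genes 5 were tested. Of these 2 were lower (40.0%, against 4.92% of all genes) and none higher, with a median of -0.34. Their summed level was 356 to 438 CPM at 24 h and 485 to 559 CPM at 6 h, which did not overlap. For 4 of the 5 every 24 h library was below every 6 h library, against 9.59% of all genes. The count of 2 was 1 without A241, A274 or A278, 0 in the fit of all 30 libraries and without both A276 and A240, and 4 with no filter, under limma-voom or with the 8 libraries alone. The part of these cells in the other results was not tested.

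Among astrocyte genes that passed the test, more were lower than higher at 24 h. Of 24 tested genes of reactive astrocytes (25 listed) 1 was higher and 8 lower, with a median of -0.18, and of 18 homeostatic astrocyte genes 2 were higher and 7 lower, with a median of -0.04. Lcn2, which encodes the iron-sequestering protein lipocalin 2, was at 2.81, 3.49, 3.18 and 4.23 CPM at 24 h and at 9.88, 13.3, 12.7 and 10.6 CPM at 6 h (-1.76 ± 0.16, adjusted p = 2.68e-07). Ggta1, a galactosyltransferase gene, was at 4.55, 4.74, 6.27 and 4.64 CPM against 8.85, 10.5, 8.21 and 9.04 CPM (-0.85 ± 0.13, adjusted p = 9.05e-05). Gfap, the intermediate filament of astrocytes, was the member that rose, at 431, 469, 608 and 471 CPM against 307, 345, 324 and 295 CPM (0.64 ± 0.13, adjusted p = 0.0108). The groups did not overlap for these 3 genes. Without A274 or A275, 2 members of the reactive list were higher. Without A276 the difference of Gfap was 0.53 (adjusted p = 0.0241), and it missed the threshold without both A276 and A240.

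Aqp4, the water channel of astrocyte end feet, was at 111, 108, 112 and 113 CPM at 24 h and at 74.8, 72.1, 80.8 and 78.5 CPM at 6 h (0.53 ± 0.05, adjusted p = 6.49e-07). Aldoc, the brain aldolase, was at 705, 730, 817 and 719 CPM against 1080, 1140, 1140 and 1100 CPM (-0.59 ± 0.04, adjusted p = 6.21e-09). Aldh1l1, a folate enzyme used as an astrocyte marker, was at 29.7, 32.4, 34.4 and 32.0 CPM against 55.0, 52.9, 51.1 and 53.4 CPM (-0.72 ± 0.06, adjusted p = 4.63e-08). Thus 1 channel gene was higher and both enzyme genes lower, with no overlap. Gjb6, the gap junction protein connexin 30, differed by -0.57 ± 0.08 (adjusted p = 0.000157). Etnppl, a phosphoethanolamine phospholyase expressed by astrocytes, was at 8.77, 6.69, 30.9 and 8.01 CPM against 44.5, 45.3, 35.8 and 42.1 CPM (-1.60 ± 0.38, adjusted p = 0.0232). A276 held the value of 30.9 CPM. Without it the difference was -2.42 (adjusted p = 9.75e-09), and Etnppl missed the threshold without A240, A241, A274, A275 or A278.

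**Figure D4:**
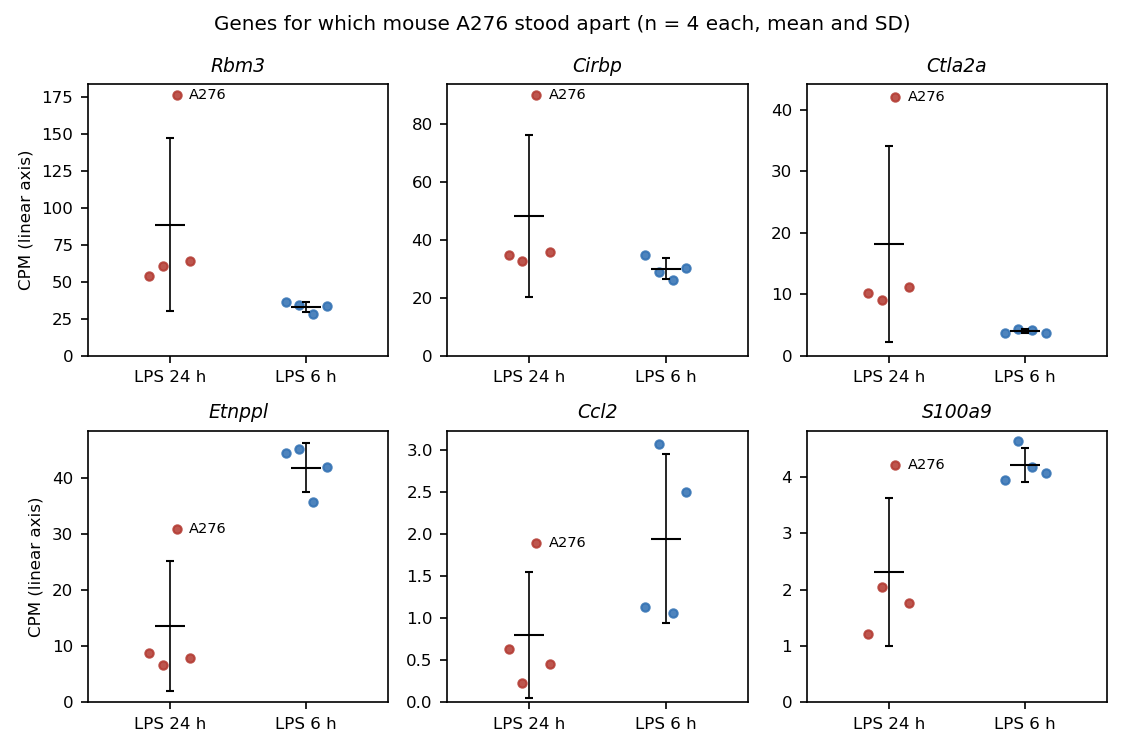
CPM on linear axes from 0 in the 4 LPS 24 h libraries (red, left) and the 4 LPS 6 h libraries (blue, right) for 6 genes, with mean and SD and A276 labelled. A276 was the highest 24 h library in each panel, at 176 CPM for Rbm3 and 42.1 CPM for Ctla2a, and lay among or near the 6 h libraries for Ccl2, S100a9 and Etnppl.

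Glucocorticoid-responsive genes split into a few that were lower and many that did not pass the test. Of 27 genes 3 were higher and 5 lower, with a median of -0.08. Sult1a1 (chromosome 7, 126672865 to 126676432), a phenol sulfotransferase, was at 2.86, 2.19, 3.59 and 2.32 CPM at 24 h and at 17.4, 18.5, 17 and 17.9 CPM at 6 h (-2.68 ± 0.17, adjusted p = 4.63e-08). Plin4, a lipid droplet coat gene, was at 0.872, 0.976, 1.77 and 0.774 CPM against 5.98, 7.88, 3.31 and 4.49 CPM (-2.30 ± 0.54, adjusted p = 0.0206), and it missed the threshold without A240, A241, A274, A275 or A278. Saline libraries held more of both, on average 25.2 CPM of Sult1a1 and 40.7 CPM of Plin4. Pla2g3, a secreted phospholipase, differed by -1.29 ± 0.21 (adjusted p = 0.000244), and Mt1, the metal-binding metallothionein, by -0.62 ± 0.12 (adjusted p = 0.00698). Fkbp5, the co-chaperone that limits glucocorticoid receptor activity, was at 77.9, 72.6, 76.7 and 69.9 CPM against 83.4, 88.1, 76.8 and 72.6 CPM. Its difference of -0.11 ± 0.09 missed the threshold (adjusted p = 0.499), while both times were below the saline mean of 138 CPM, by 0.89 and 0.78 on the log2 scale (log2 fold changes -0.89 and -0.78, adjusted p = 1.2e-05 and 0.000103). The members called higher were both receptor genes, Nr3c1 (0.19 ± 0.05) and Nr3c2 (0.23 ± 0.07), and Hsd11b1 (0.35 ± 0.07), the enzyme that regenerates active glucocorticoid; without A242 only the last was called. Nr3c2 was not called without A241, A242, A243, A274, A275, A276 or A278.

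Of 20 clock genes 4 were higher and 3 lower, with a median of 0.09. Dbp, a circadian output factor, was at 37.8, 39.6, 46.2 and 40.9 CPM at 24 h and at 33.9, 30.7, 32.2 and 35.2 CPM at 6 h (0.32 ± 0.07, adjusted p = 0.0064). The repressor gene Nr1d2 was at 96.3, 102, 112 and 101 CPM against 83.8, 81.5, 77.0 and 90.2 CPM (0.31 ± 0.05, adjusted p = 0.000316). Npas2, a partner of BMAL1, was at 23.6, 20.6, 18.6 and 19.0 CPM against 26.7, 27.2, 26.6 and 27.3 CPM (-0.40 ± 0.07, adjusted p = 0.000834). The groups of these genes did not overlap. Ciart, a repressor of CLOCK and BMAL1 whose promoter is printed above, differed by 0.49 ± 0.13 (adjusted p = 0.0143) and by 0.32 without A276 (adjusted p = 0.0641), when 2 members were higher in place of 4. Per1, a negative limb gene that glucocorticoids also induce, was at 72.6, 74.1, 78.2 and 66.3 CPM against 69.7, 63.0, 58.6 and 66.0 CPM (0.18 ± 0.07, adjusted p = 0.105).

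Some sterol and chaperone genes were lower at 24 h. Of 20 genes of sterol synthesis, uptake and efflux 9 were lower and 1 higher, with a median of -0.21. Fdft1, squalene synthase, was at 60.1, 56.5, 50.2 and 58.3 CPM at 24 h and at 72.5, 79.5, 81.3 and 80.2 CPM at 6 h (-0.48 ± 0.06, adjusted p = 1.43e-05). All 24 h libraries were below all 6 h libraries for this gene. Sqle, squalene epoxidase, and Msmo1, a sterol demethylating oxidase, were lower as well, with log2 fold changes of -0.38 ± 0.08 (adjusted p = 0.00594) and -0.42 ± 0.09 (adjusted p = 0.00632). The cholesterol exporter gene Abca1 was the member that rose (0.44 ± 0.13, adjusted p = 0.039), and it missed the threshold without A241, A242, A243, A274, A275 or A276.

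Of 21 heat shock and endoplasmic reticulum chaperone genes 9 were lower and none higher at this threshold, with a median of -0.31. Xbp1, the transcription factor of the unfolded protein response, was at 81.3, 83.5, 66.0 and 80 CPM at 24 h and at 102, 113, 115 and 108 CPM at 6 h (-0.50 ± 0.08, adjusted p = 0.00113). Hspa1a and Hspa1b, near-identical copies of the inducible heat shock protein gene whose reads counting may have divided, differed by -0.56 ± 0.12 (adjusted p = 0.00816) and -0.58 ± 0.14 (adjusted p = 0.0206). Hspa1b missed the threshold without A241, A242, A276 or A278. A276 was the lowest 24 h library for Xbp1, Hspa1a and Hspa1b.

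Several genes of no list were among the 12 largest rises or falls at a mean of at least 1 log2 CPM. Hist1h1c, a linker histone gene, was at 14.1, 12.7, 14.6 and 13.1 CPM at 24 h and at 47.2, 35.1, 28.0 and 42.7 CPM at 6 h (-1.49 ± 0.20, adjusted p = 0.000607). Xdh, xanthine dehydrogenase, was at 3.20, 2.70, 2.15 and 2.46 CPM against 8.55, 8.25, 7.70 and 6.74 CPM (-1.58 ± 0.22, adjusted p = 0.000202). Both were lower in every 24 h library. Against saline, Xdh differed by -1.82 at 24 h (adjusted p = 2.47e-05) and by -0.24 at 6 h (adjusted p = 0.681). Scgb3a1, a secretoglobin gene, was higher, at 3.59, 2.98, 4.04 and 2.87 CPM against 0.946, 1.29, 1.12 and 1.23 CPM (1.56 ± 0.19, adjusted p = 7.37e-06).

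Genes of neurons and synapses were called about as often as all genes. Of 27 such genes 1 was higher (3.7%, against 4.57% of all genes) and 2 lower (7.41%, against 4.92%), with a median of -0.05. For 7 of the 27 every 24 h library was below every 6 h library, against 9.59% of all genes. For 1 every 24 h library was above, against 8.48% of all genes. The summed level of the 27 was 20100 to 20800 CPM at 24 h and 21200 to 21400 CPM at 6 h. Camk2a, the calcium-dependent kinase of excitatory neurons, differed by -0.17 ± 0.04 (adjusted p = 0.0133) and missed the threshold without A240. The gene called higher, the NMDA receptor subunit gene Grin2b (0.35 ± 0.09), was not called without A240, A241, A242, A274 or A275. The count of 2 lower genes was 0 without A240 and 1 without A241, A242, A243, A274, A276 or A278. Of 18 neuropeptide genes 2 were lower (11.1%, against 4.92% of all genes) and none higher at this threshold. Vip, the vasoactive intestinal peptide of a class of interneurons, was at 16.6, 15, 16.7 and 15.6 CPM at 24 h and at 21.3, 24.8, 20.6 and 23.6 CPM at 6 h (-0.50 ± 0.09, adjusted p = 0.00105). Vgf, a secreted neuronal precursor protein, was at 218, 207, 181 and 205 CPM against 248 to 262 CPM at 6 h (-0.33 ± 0.06, adjusted p = 0.000526). Both groups of each gene were apart.

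Some myelin genes were higher at 24 h. Of 16 such genes 5 were higher and none lower at this threshold, with a median of 0.21, and 2 were higher without A241, A242, A274 or A278 and 3 without A240; without A242, 1 was lower. Opalin, a transmembrane protein of mature oligodendrocytes, was at 16.6, 13.1, 20 and 16.9 CPM at 24 h and at 8.44, 5.83, 7.70 and 7.06 CPM at 6 h (1.20 ± 0.22, adjusted p = 0.0037). Its groups did not overlap. Mbp, myelin basic protein, differed by 0.22 ± 0.09 (adjusted p = 0.15; called without A275). Among 12 oligodendrocyte precursor genes 1 was higher (8.33%, against 4.57% of all genes). It was Ptprz1, a receptor phosphatase also made by astrocytes (0.28 ± 0.05, adjusted p = 0.000931).

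**Figure D5:**
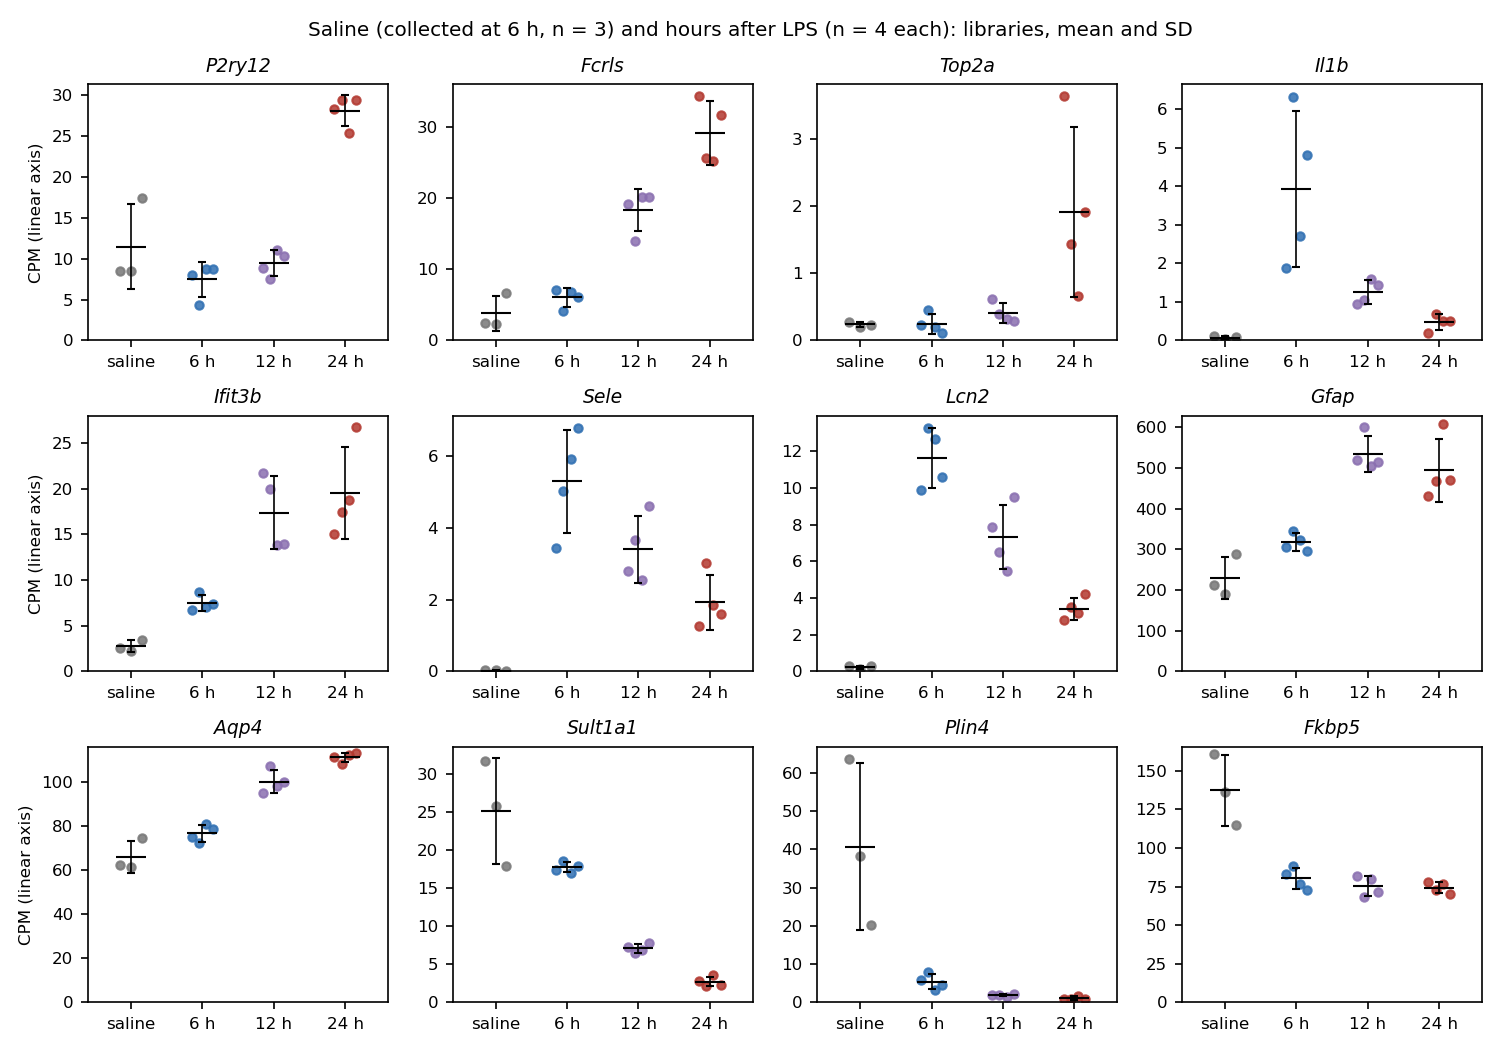
CPM on linear axes from 0 in hippocampal libraries after saline (3, collected at 6 h) and 6, 12 and 24 h after LPS (4 each), with mean and SD, for 12 genes. P2ry12 averaged 9.43 CPM at 12 h and 28.1 CPM at 24 h, Il1b and Lcn2 were highest at 6 h, Gfap was highest on average at 12 h, and Sult1a1 and Plin4 were highest after saline.

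The 12 h mean lay between the 6 h and 24 h means for some genes and outside them for others. Ccl12 averaged 1.41 CPM at 6 h, 4.78 CPM at 12 h and 2.65 CPM at 24 h. In the same order Gfap averaged 318, 535 and 495 CPM, and Mfsd2a 19.7, 9.89 and 10.6 CPM. P2ry12 averaged 11.5 CPM after saline, 7.46 CPM at 6 h, 9.43 CPM at 12 h and 28.1 CPM at 24 h, and Top2a averaged 0.237, 0.249, 0.405 and 1.91 CPM in that order. Il1b averaged 0.0716 CPM after saline, 3.93 CPM at 6 h, 1.25 CPM at 12 h and 0.472 CPM at 24 h. Ifit3b averaged 2.75 CPM after saline, 7.46 CPM at 6 h, 17.4 CPM at 12 h and 19.5 CPM at 24 h, so most of its difference was present at 12 h. Sult1a1 averaged 25.2 CPM after saline, 17.7 CPM at 6 h, 7.08 CPM at 12 h and 2.74 CPM at 24 h. Each time is a separate set of mice.

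The same 24 h minus 6 h difference was compared between the hippocampus and the frontal cortex of the same 8 mice, in a fit of all 30 libraries. Of 17650 genes 22 were called (0.125%), 16 with a more positive and 6 with a more negative difference in the hippocampus, while 1681 had an unadjusted p under 0.05. No member of the 36 lists was among the 22. The median over the list of surveilling microglia was 0.73 in the hippocampus and 0.68 in the cortex. P2ry12 differed by 1.43 ± 0.43 in the cortex, Itgam by 1.58 ± 0.33 and Il1b by -1.87 ± 0.41, and their tissue differences missed the threshold (adjusted p = 0.849, 0.749 and 0.62). Top2a differed by 2.85 ± 0.48 in the hippocampus and 0.35 ± 0.44 in the cortex, a tissue difference of 2.49 ± 0.66 that missed the threshold (adjusted p = 0.131), and Mki67 by 1.85 ± 0.31 and -0.28 ± 0.38 (2.13 ± 0.51, adjusted p = 0.0815). Among named genes that passed, Prss23, a serine protease gene, differed by 0.47 ± 0.11 in the hippocampus and -0.31 ± 0.10 in the cortex (0.77 ± 0.15, adjusted p = 0.0389). Tubb3, a neuronal tubulin, differed by -0.27 ± 0.05 and 0.11 ± 0.05 (-0.39 ± 0.07, adjusted p = 0.0288). The cilium transport gene Ift122 had a tissue difference of -0.42 ± 0.09 (adjusted p = 0.0389), and the cell cycle inhibitor gene Rprm one of -0.63 ± 0.14 (adjusted p = 0.0474). No gene passed without mouse A240, A243, A274 or A276, so none of these calls held whichever mouse was left out.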

How the data were processed

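RNA-seq of polyA-selected, stranded libraries was read as paired 150-base reads, per the labels' protocols. The authors deposited 1 table of whole-number counts per gene for 30 libraries. Trim Galore 0.4.1, FastQC, STAR 2.6.0a, DESeq2 and the build GRCm38 (mm10) are named, per the submitters' processing notes. No source used here gives the counting tool, its strand setting or its annotation, so values of overlapping genes, antisense genes and near-identical copies are uncertain. Symbols and coordinates came from GENCODE M21, which held 98.6% of the 48820 gene IDs.

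Counts were scaled by TMM (factors 0.99 to 1.02 in the 8 libraries) and tested with edgeR 4.0.16 in R 4.3.3 (glmQLFit, robust, and glmQLFTest) on all 15 hippocampal libraries, after filterByExpr with a minimum count of 10 and a total of 15. Calls use a two-sided Benjamini-Hochberg adjusted p under 0.05 over all genes tested. SE is the log2 fold change divided by the square root of F. CPM are counts relative to the TMM-scaled library total and do not allow for gene length. The test was checked on simulated counts with known changes, in which no library was made to stand apart. It recovered 71.2% of changes of 0.585 on the log2 scale, 85.1% of changes of 1 and 98.5% of changes of 2. Of its 178 calls 8 were false. Totals of 18910055 to 26366879 counts limit precision for genes below about 1 CPM.

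Named genes are the 12 largest rises and 12 largest falls among protein-coding genes whose groups do not overlap and whose mean log2 CPM reaches 1, up to 4 members of each of 36 lists (710 genes), and the largest tissue differences. Some genes this rule names are not reported here. Other list members, Rbm3 and Cirbp were added after their values were seen. The members and lists were chosen with earlier results of these data known. The p-values measure the spread between mice. The alternatives were other scalings, filters, tests and sets of libraries, with DESeq2 1.42.0 and limma 3.58.1. The mouse code links the 2 tissues of a mouse, whose deviations from their group means correlated with r between -0.0025 and 0.293 (median 0.101, over 0.1 in 4 of 8 mice).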

Additional observations from a re-analysis of the deposited data

Results flagged for a closer look

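Among 254 sets of 4 libraries (each named gene at each time), 18 had 1 library far from the other 3, of which 10 were A276 and 4 were A240; chance alone flags about 1 set in 20. In A276 at 24 h the high values were Rbm3 at 176 CPM (53.8 to 63.8 CPM in the other 3 libraries), Cirbp at 90.0 CPM (32.6 to 35.7), Ctla2a at 42.1 CPM (9.16 to 11.2), Slc2a1 at 109 CPM (68.1 to 72.1), Etnppl at 30.9 CPM (6.69 to 8.77), Ggta1 at 6.27 CPM (4.55 to 4.74) and S100a8 at 2.85 CPM (1.0 to 1.26). The low values in A276 were Tie1 at 5.78 CPM (7.46 to 7.76), Cx3cl1 at 444 CPM (514 to 522) and Sqle at 37 CPM (48 to 48.6).

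In A240 at 6 h, Ttr stood at 341 CPM (25.4 to 39.2 in the other 3 libraries) and Camk2a at 4380 CPM (4150 to 4180) on the high side, and Ifit3 at 11.5 CPM (12.9 in each) and Tnfrsf1b at 4.24 CPM (5.05 to 5.19) on the low side. The other set at 24 h was Selp in A274 (1.16 CPM, against 1.65 to 1.72). At 6 h they were Tnf in A243 (0.962 CPM, against 0.458 to 0.510), Vwf in A241 (15.5 CPM, against 17 to 17.1) and Ccl12 in A242 (1.73 CPM, against 1.28 to 1.33).

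The 24 h minus 6 h change differed between hippocampus and frontal cortex, by the interaction term of edgeR's quasi-likelihood test, for Prss23 (0.77 on the log2 scale), Rprm (-0.63), Ift122 (-0.42) and Tubb3 (-0.39). No gene passed this test without mouse A240, A243, A274 or A276.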

How the results depend on the processing

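Against 790 higher and 850 lower genes, limma-voom with quality weights called 1267 and 1359, the fit of all 30 libraries 499 and 541, and leaving out both A276 and A240, chosen after seeing the data, 547 and 534. Leaving out 1 of the 8 libraries gave 555 to 731 higher and 572 to 724 lower. Of 127 genes at least 2-fold higher, a stricter filter left 78, and of 67 at least 2-fold lower, no filter gave 109. For the tissue difference (16 more positive, 6 more negative in the hippocampus), library totals alone gave 10 more positive, DESeq2 gave 68 and 26, and the 16 libraries alone gave 43 more positive. Leaving out 1 mouse gave 0 to 55 more positive and 0 to 3 more negative. With the mouse as a replicate block, 16 and 4 were called; this pairing links tissues, and the compared hippocampal groups share no mice. The change of Ttr (-1.68, adjusted p = 0.561 in edgeR) became 0.12 without A240 (adjusted p = 0.978) and ranged down to -2.0 without A242. That of Tnfaip3, near 0, turned to -0.032 under limma-voom, to -0.033 without A242, to -0.0059 without A240, to -0.072 without A275 and to -0.0063 without A276 and A240; the cause was not tested. Of 127 printed genes 117 were called, and 93 of these were called whichever single library was left out. Without both A276 and A240, 17 printed genes lost their call. These were Cxcl10, Ccl12, Mx1, Gbp3, Gbp6, Gbp7, Irf5, Gfap, Plin4, Ciart, Abca1, Camk2a, Rbm3, Prss23, Apoe, Nr3c2 and Tnfrsf1b. Transcripts below about 1 CPM, such as Tnf and Il1rn, rest on few counts.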
